A study of Mus musculus with 3 samples.

Results

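Crx, Nrl and Mef2d, genes for transcription factors that act in photoreceptors, were followed in the retina of 10-day-old wild-type mice. All probe sets, groups of short probes against a transcript, that the platform annotation assigns to exactly 1 of these symbols were taken. There was 1 for each gene, which makes 3 probe sets and 3 of the 8251 named genes of the array. No probe set with several symbols named any of them. The measurements came from Affymetrix U74Av2 arrays, 1 for each of 3 samples, and a sample was total RNA of neural retinas that had been dissected between 1 and 2 pm on postnatal day 10 and pooled from 3 to 4 animals. The mice were wild-type littermates of Rp1-/- animals on a mixed 129/SvEv and C57BL/6 background. Rp1 appears in the titles of pools 2 and 3 but not in the title of pool 1. All 3 descriptions give wild type and were followed. The labels thus give 1 group, so nothing was tested between groups, and the comparisons below are between genes' patterns over the 3 pools. Pool numbers follow accession order and only name the samples.

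CRX is a homeodomain protein related to OTX2 that switches on genes of both rods and cones as they mature. NRL is a basic leucine zipper protein of the MAF family that commits a photoreceptor precursor to the rod fate, and mouse retinas without it form cone-like cells in place of rods. MEF2D is a MADS-box protein made in many tissues, which in photoreceptors works together with CRX on a shared set of regulatory elements. In the mouse, rods form around birth, and at this age they are building outer segments.

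The start regions of the 3 genes are shown because CRX, NRL and MEF2 proteins act by binding DNA and the members differ in what these stretches hold. Each runs from 250 bases before to 50 bases after the annotated start, 5′ to 3′ along the gene, from the RefSeq promoter table on GRCm38.p6. Capitals mark matches on either strand to TAATCC, a motif bound by CRX and OTX homeodomains, or TGCTGA, part of the element bound by MAF proteins.
Crx, chr7:15879906-15880205, minus strand: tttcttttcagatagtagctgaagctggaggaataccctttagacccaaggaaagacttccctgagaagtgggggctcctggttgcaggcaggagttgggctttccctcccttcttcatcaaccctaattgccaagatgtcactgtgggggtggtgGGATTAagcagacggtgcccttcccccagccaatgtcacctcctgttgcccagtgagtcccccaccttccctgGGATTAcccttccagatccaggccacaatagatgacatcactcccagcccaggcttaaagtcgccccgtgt
Nrl, chr14:55524203-55524502, minus strand: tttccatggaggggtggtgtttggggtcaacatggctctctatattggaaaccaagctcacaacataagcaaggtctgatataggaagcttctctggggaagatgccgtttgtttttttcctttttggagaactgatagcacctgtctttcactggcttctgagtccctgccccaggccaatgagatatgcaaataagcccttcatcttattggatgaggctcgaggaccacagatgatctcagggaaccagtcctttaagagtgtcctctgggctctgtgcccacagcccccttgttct
Mef2d, chr3:88142122-88142421, plus strand: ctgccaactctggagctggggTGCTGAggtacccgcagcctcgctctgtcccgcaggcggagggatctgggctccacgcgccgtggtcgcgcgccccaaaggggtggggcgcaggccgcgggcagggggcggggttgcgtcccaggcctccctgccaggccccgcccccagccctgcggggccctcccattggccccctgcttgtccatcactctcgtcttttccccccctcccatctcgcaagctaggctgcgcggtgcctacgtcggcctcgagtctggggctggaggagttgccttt
The Crx stretch held 2 copies of TAATCC, both on the strand opposite to the gene and therefore read as GGATTA, at 94 to 89 and 21 to 16 bases before the start. The Mef2d stretch held 1 copy of TGCTGA, 229 to 224 bases before the start. The Nrl stretch held neither, and none of the 3 held the MEF2 element, either in its strict form or in a looser form, which includes the first, with its 4 central bases left free. Of 32851 promoters of the same length in the table, 7.06% held TAATCC, 19.5% held TGCTGA, 0.16% held the strict MEF2 element and 3.69% the looser one. A match is a run of letters and not evidence of binding, and the absence of one concerns these 300 bases only. The Mef2d stretch was 72.0% G and C, against 54.7% for Crx and 48.7% for Nrl.

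All 3 genes were measured above background on every array, Crx and Mef2d by a wide margin and Nrl by a narrow one. As a background limit, the 90th percentile over 78 probe sets of 64 genes of other tissues was taken for each pool, and it was 339.8, 343.0 and 308.2 in pools 1 to 3. By this limit 42.8% of named genes, and 35.2% of all probe sets, were above background throughout, and 42.4% of named genes in no pool. Signals are the deposited linear intensities, and those of different probe sets cannot be compared as amounts of transcript. In pooled tissue, a change in the number of cells of a type and in RNA per cell cannot be told apart.

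Crx gave signals of 8222.9, 7619.8 and 6475.1 in pools 1, 2 and 3, on average 7439 ± 888 (SD, n = 3). Pool 1 was highest and pool 3 lowest, 1.27-fold apart. These signals were 24.2, 22.2 and 21.0 times the limits of arrays 1, 2 and 3. The SD of Crx on the log2 scale was 0.18, and 27.2% of the 4166 genes above the limit on average had a smaller one. Without pool 3 the range of Crx fell from 0.34 to 0.11 on the log2 scale. Leaving out an extreme pool narrows a range by construction, here and for the other members below. The share of genes with a smaller SD than Crx was 48.4% after quantile normalization.

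For Nrl the signals were 518.5, 672.0 and 493.6 in pools 1, 2 and 3, on average 561.4 ± 96.6 (SD, n = 3). Pool 2 stood above the other pools, which were close to each other, and the range was 1.36-fold. The signals were 1.53, 1.96 and 1.60 times the limits. With the limit at the 95th percentile of the same probe sets, 622.8, 631.7 and 496.3 on arrays 1 to 3, Nrl exceeded it in pool 2 and fell under it in pools 1 and 3. The log2 SD of Nrl was 0.24, and 43.4% of genes above the limit on average had a smaller one. Without pool 2 its log2 range fell from 0.45 to 0.071.

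Mef2d gave 7222.0, 6668.0 and 6482.5 in pools 1, 2 and 3, on average 6791 ± 385 (SD, n = 3). Its pools lay within 1.11-fold of each other, the narrowest range of the 3 members, and its signals were 21.3, 19.4 and 21.0 times the limits. The log2 SD was 0.081, and 7.08% of the genes above the limit on average had a smaller one. Among the 236 genes with a mean signal within 2-fold of its own, the median SD was 0.23 and 10.2% had a smaller one. The same shares were 36.2% for Crx among 213 genes and 37.7% for Nrl among 3167. Without pool 1 the log2 range of Mef2d fell from 0.16 to 0.041. These ranks hold for the deposited values. The log2 SD of Mef2d was 0.13 after scaling to a common median and 0.15 after quantile normalization, and 14.7% and 22.1% of genes above the limit on average then had a smaller one.

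**Figure D1:**
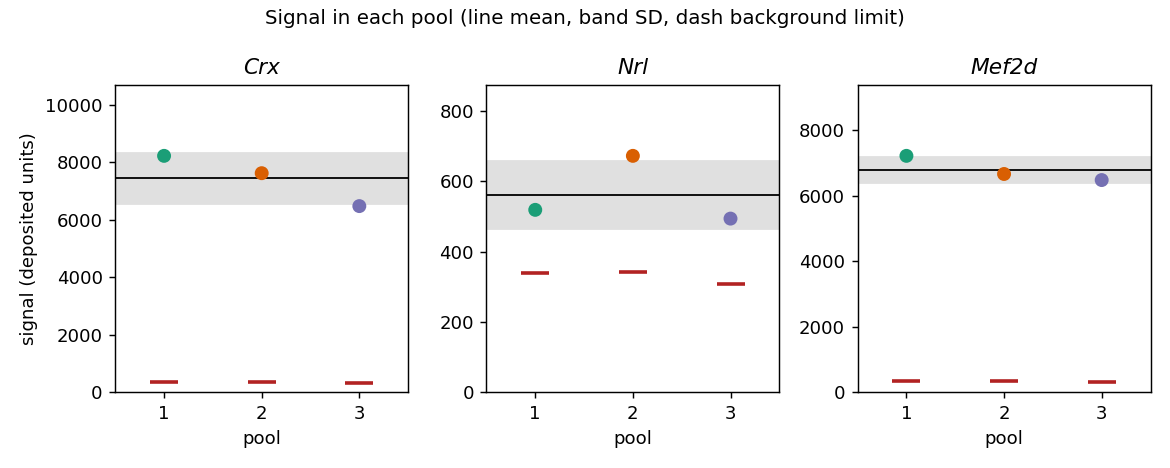
Signal in deposited units on the vertical axis for Crx, Nrl and Mef2d in pools 1, 2 and 3, with the mean as a line, 1 SD on each side as a band and each array's background limit as a red dash. Crx (6475.1 to 8222.9) and Mef2d (6482.5 to 7222.0) lay far above the limit, and Nrl (493.6 to 672.0) lay nearer to it.

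**Figure D2:**
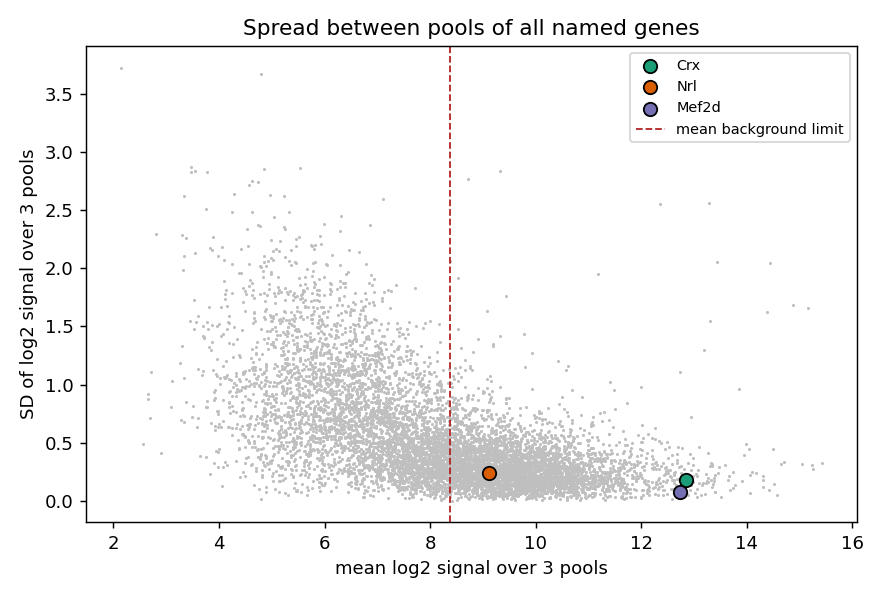
SD of log2 signal over the 3 pools against mean log2 signal, with a grey point for each of the 8251 named genes, large points for the members and a dashed line at the mean background limit. The members had SDs of 0.18 (Crx), 0.24 (Nrl) and 0.081 (Mef2d), against a median of 0.27 for genes above the limit on average.

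Crx and Mef2d shared an order of pools, highest in pool 1 and lowest in pool 3, and Nrl did not. Of the 3529 genes above the limit on all arrays, 18.2% had that order, so sharing it is common. The order also depended on scaling. After quantile normalization Crx read 8138.2, 8161.2 and 5993.3, which put pool 2 level with pool 1, and after scaling to a common median Mef2d read 7513.4, 6400.9 and 6501.6, with pool 2 lowest. As deposited and under both of these scalings, pool 3 was lowest for Crx, and Nrl was highest in pool 2 and lowest in pool 3. The log2 difference of pool 3 from pool 1 was -0.34 for Crx, -0.071 for Nrl and -0.16 for Mef2d. Of the 3529 genes, 22.5%, 47.4% and 38.5% had a lower difference than Crx, Nrl and Mef2d.

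Among other transcription factors of photoreceptors, Neurod1, Prdm1, Rax and Nr1d1 were also above background on all arrays. In the list of 20 such genes, which includes the 3 members, 13 were measured. Of these, 7 were above the limit on every array, the 3 members among them, and 6 on none. Of all named genes 42.8% were above it on every array. Neurod1, a basic helix-loop-helix factor needed for photoreceptor survival, read 3245.1, 5805.7 and 3685.1 in pools 1 to 3, with pool 2 highest, as for Nrl. Prdm1, a repressor that keeps precursors from becoming bipolar cells, read 903.7, 760.4 and 470.7, a 1.92-fold range in the order of pools seen for Crx. Rax, a homeobox factor of early eye and photoreceptor development, read 1960.7, 1590.8 and 1827.9. Nr1d1, a nuclear receptor of the circadian clock, read 581.7, 463.3 and 552.2. None of the 7 was highest in pool 3, as deposited, after quantile normalization or at a common median, whereas 31.4% of all genes above the limit were. At the 95th percentile limit Nrl, Prdm1 and Nr1d1 were lost from the 7.

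Rxrg and Thrb, nuclear receptors with a role in cone opsin choice, were not above background in any pool, at 104.2, 51.3 and 48.4 for Rxrg and 63.1, 103.6 and 129.9 for Thrb. The same held for Esrrb, an orphan nuclear receptor acting downstream of NRL, at 82.7, 73.8 and 106.6. Sall3, at 326.5, 205.4 and 272.8, Onecut1, at 155.3, 137.4 and 120.3, and Ikzf1, at 210.7, 146.9 and 187.5, were under the limit too. A signal under the limit does not show that a gene was silent. Otx2, Nr2e3, Rorb, Samd7, Samd11 and Casz1 were not matched to a probe set and are not analysed here.

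Of the other MEF2 genes, Mef2a and Mef2b were above background and Mef2c was not. Mef2a read 934.6, 976.8 and 952.1, a 1.05-fold range. A second Mef2a probe set, with the suffix _r_at, read 45.4, 79.0 and 62.2, under the limit. Mef2b read 563.5, 588.1 and 626.9, while its second probe set read 87.4, 96.1 and 225.9, also under the limit. For both genes the call therefore rests on 1 of 2 probe sets, and averaging them left Mef2d as the single MEF2 gene above the limit on all arrays. All 4 probe sets of Mef2c, a direct target of NRL in rods, stayed under the limit, and the brightest of them read 16.1, 231.7 and 130.4. Mef2a, Mef2b and Mef2d each spanned at most 1.11-fold over the pools as deposited. They did not share an order, since Mef2b was highest in pool 3 and Mef2d in pool 1.

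Of the MAF relatives of Nrl, Mafg, a small MAF protein without an activation domain, was above background, at 393.3, 476.0 and 439.4. Its second probe set read 410.0, 458.4 and 331.0. Both Mafg probe sets were highest in pool 2, as was Nrl, and both lay close to the limit. Maf (159.2, 121.0 and 42.1), Maff (57.1, 88.3 and 35.1) and Mafk (255.3, 84.7 and 134.9) were under it.

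Among 10 measured homeobox genes of the paired and OTX types, Crx, Rax and Pax6 were above the limit on all arrays. The share among all named genes was 42.8%. Pax6, the regulator of eye formation that stays on in amacrine and ganglion cells, read 1633.4, 1757.0 and 1823.1. Alx4 read 59.7, 113.8 and 343.1 and exceeded the limit in pool 3. Pitx1, Pitx3, Gsc, Phox2a, Prrx1 and Prrx2 were above it on no array, with the highest value, 299.2, for Pitx1 in pool 1.

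Genes of proteins that work with CRX or NRL were mostly above background. Of 16 listed genes 11 were measured, and 8 of these were above the limit in every pool and 1 in no pool. Of all named genes, 42.8% were above it in every pool and 42.4% in no pool. At the 95th percentile limit Sp1 and Ncoa1 were lost from the 8. Pias3, a SUMO ligase that acts with CRX and NR2E3 in rods, read 2797.0, 2627.8 and 2132.9. Its 2 further probe sets read 2014.5, 1942.3 and 1495.7, and 989.7, 1032.0 and 862.8, and all 3 sets were lowest in pool 3, as Crx was. Nono, an RNA-binding protein that binds NRL, read 2713.3, 3525.8 and 2204.0. It was highest in pool 2 and lowest in pool 3, the order of Nrl, whereas its second probe set, at 529.0, 478.2 and 426.3, was highest in pool 1. Banf1, a chromatin protein that binds CRX, read 1836.2, 1677.8 and 1687.5.

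The coactivators differed in their spread. Kat2b, a histone acetyltransferase, read 1366.2, 1447.9 and 1475.6, and its second probe set was under the limit. Crebbp, a further acetyltransferase, read 657.7, 731.4 and 946.5. Sp1, a general zinc finger activator, read 823.7, 687.6 and 323.9. Its 2.54-fold range was the single one over 2-fold among the 8, against 7.54% of all genes above the limit on all arrays. Sp4, a relative of Sp1 that binds CRX, exceeded the limit in pool 2 with 496.1 and not in pools 1 and 3, with 142.7 and 193.4. Kat2a was above it in no pool. Of the 8, 5 were lowest in pool 3, a share of 37.5% among all genes above the limit.

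Of 21 listed genes for signalling proteins that control MEF2 activity, 17 were measured. Of these, 10 were above the limit in every pool and 5 in no pool, against 42.8% and 42.4% of all named genes. At the 95th percentile limit Map2k3, Ppp3cb and Carm1 were lost from the 10. Class IIa histone deacetylases hold MEF2 proteins inactive. Of these Hdac5 read 2344.2, 2258.2 and 1585.0, lowest in pool 3, and Hdac7 read 1269.9, 1129.3 and 1210.0. The calcium-dependent phosphatase calcineurin activates MEF2. Its catalytic subunit gene Ppp3ca read 1341.0, 2120.8 and 2022.3, lowest in pool 1, and its regulatory subunit gene Ppp3r1 read 2645.7, 1836.9 and 2203.2, highest there. Mapk14, the p38 alpha kinase that phosphorylates MEF2 proteins, read 925.6, 771.1 and 885.4. Map2k5 read 730.6, 876.0 and 594.2, while Mapk7, the ERK5 kinase it activates, was under the limit in every pool. Map2k6, which activates p38, was also under it.

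Map2k3, a second activator of p38, read 1019.6, 356.9 and 1044.7, a 2.93-fold range. Its 2 other probe sets did not follow, at 425.3, 411.0 and 457.6 and at 73.5, 65.0 and 37.5. Camk2b, a calmodulin-dependent kinase, was nearly level at 2316.6, 2514.2 and 2363.2.

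**Figure D3:**
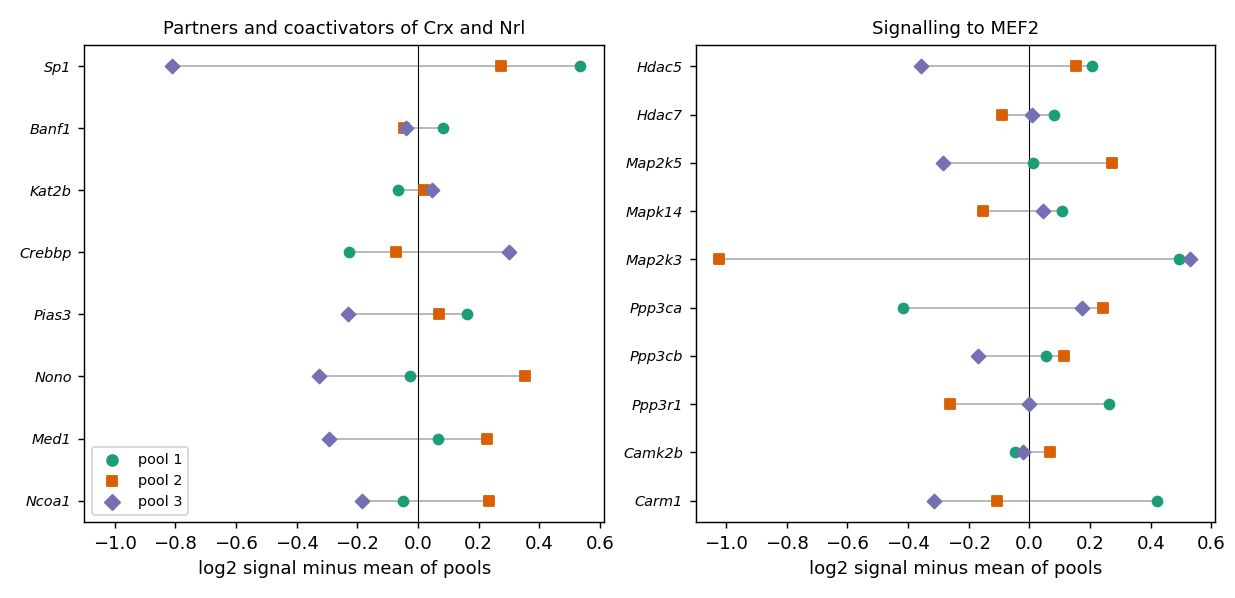
Each gene's log2 signal on the horizontal axis, centred on its mean over the pools, 1 row per gene above the limit on all arrays, for partners and coactivators of Crx and Nrl and for signalling to MEF2; circles, squares and diamonds are pools 1, 2 and 3. Sp1 and Map2k3 spanned 2.54-fold and 2.93-fold, whereas Banf1, Kat2b and Camk2b spanned at most 1.09-fold.

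Rod genes known to depend on Crx and Nrl were mostly highest in pool 3, where Crx was lowest. Of 34 listed genes 21 were measured, and 17 were above the limit on all arrays, against 42.8% of all named genes. Of the 17, 15 were highest in pool 3 on their brightest probe sets (12 after quantile normalization), a share of 31.4% among all genes above the limit. Gnat1, the rod transducin alpha subunit, read 1014.7, 1101.3 and 10970.1 in pools 1 to 3. Rcvrn, the calcium sensor recoverin, read 3145.5, 2429.2 and 8725.7, and Gnb1, a transducin beta subunit, read 7629.7, 14796.4 and 28821.2. Pde6a and Pde6b, the catalytic subunits of the rod phosphodiesterase, read 557.3, 620.3 and 1189.5, and 9198.1, 9943.9 and 11793.3. Cnga1, the channel subunit, read 665.4, 1189.1 and 1440.0, and Abca4, the retinoid transporter of discs, read 2387.0, 2037.1 and 4657.0. Pde6g, the inhibitory phosphodiesterase subunit, read 13730.9, 12851.3 and 23847.9, and Reep6, a membrane-shaping protein of rods, read 3659.8, 3119.1 and 6408.3. In each of these 9 genes pool 3 was highest as deposited.

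The exceptions were Pdc, phosducin, at 21087.5, 23618.6 and 21312.9, and Prph2, the disc rim protein, at 2094.2, 2718.4 and 1482.8. In both pool 2 was highest, and in Prph2 pool 3 was lowest, the order of Nrl. Prom1 was counted among the 15 on its brightest probe set, at 10151.3, 9813.1 and 11858.8. Its second probe set, at 3757.9, 4603.5 and 3298.1, had the order of Nrl. The further probe sets of Gnb1, Pde6b and Rom1 were highest in pool 3. The log2 difference of pool 3 from pool 1 had a median of 0.71 over the 17 rod genes, with 16 above 0 and a span from -0.50 to 3.43. Over the 7 transcription factors the median was -0.10, with 1 above 0 (Neurod1), and over all 3529 genes it was -0.044, with 45.5% above 0. After quantile normalization the rod median was 0.54 with 14 of 17 above 0, against -0.014 over all 3529 genes. After scaling to a common median the rod median was 0.66 with 15 of 17, against -0.096 over all 3529 genes. Scaling to a common median multiplies each array by 1 factor, so it cannot change the gap between rod genes and all genes. Between pools 1 and 2 the 17 rod genes had a median log2 difference of pool 2 from pool 1 of 0.059 and 10 of 17 above 0, against a median of -0.029 over all 3529 genes.

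Other measures also differed between the pools, though not all of them set pool 3 apart. The 3′ to 5′ signal ratio of the Actb controls was 1.20, 1.44 and 1.69 in pools 1 to 3, and that of Gapdh was 0.95, 0.88 and 0.93. Lens markers, genes of a tissue next to the retina, took 3.17%, 0.58% and 5.40% of the summed signal. On their brightest probe sets all 11 measured were lowest in pool 2 and highest in pool 3. A second Crybb2 probe set, above the limit throughout, was not, at 1202.5, 1332.7 and 929.8. A further Cryge probe set above the limit throughout was, at 42435.5, 8267.0 and 60517.4. Of all genes above the limit on all arrays, 31.4% were highest and 37.5% lowest in pool 3. Müller glia markers were above the limit on all arrays for 7 of 9 genes, with 6 of the 7 highest in pool 3. Their summed signal ran from 20821.8 to 32020.8. Amacrine and ganglion cell markers were highest in pool 3 for 5 of the 7 genes above the limit throughout, with a summed signal of 10186 to 15965.4. Both endothelial markers above the limit throughout, of 9 measured, were highest there, with a summed signal of 2035.4 to 3336.7. Of 3 bipolar cell genes above the limit throughout, 1 was highest and 2 were lowest in pool 3. The 4 genes of progenitors and dividing cells above the limit throughout were lowest in pool 3 on their brightest probe sets, as was Crx. Hes1, 1 of the 4, spanned only 1.08-fold. A second probe set of Ccnd1, another of them, was above the limit throughout and highest in pool 3, at 350.9, 350.5 and 399.5. The part of these measures in the pattern of the rod genes or of Crx was not tested.

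**Figure D4:**
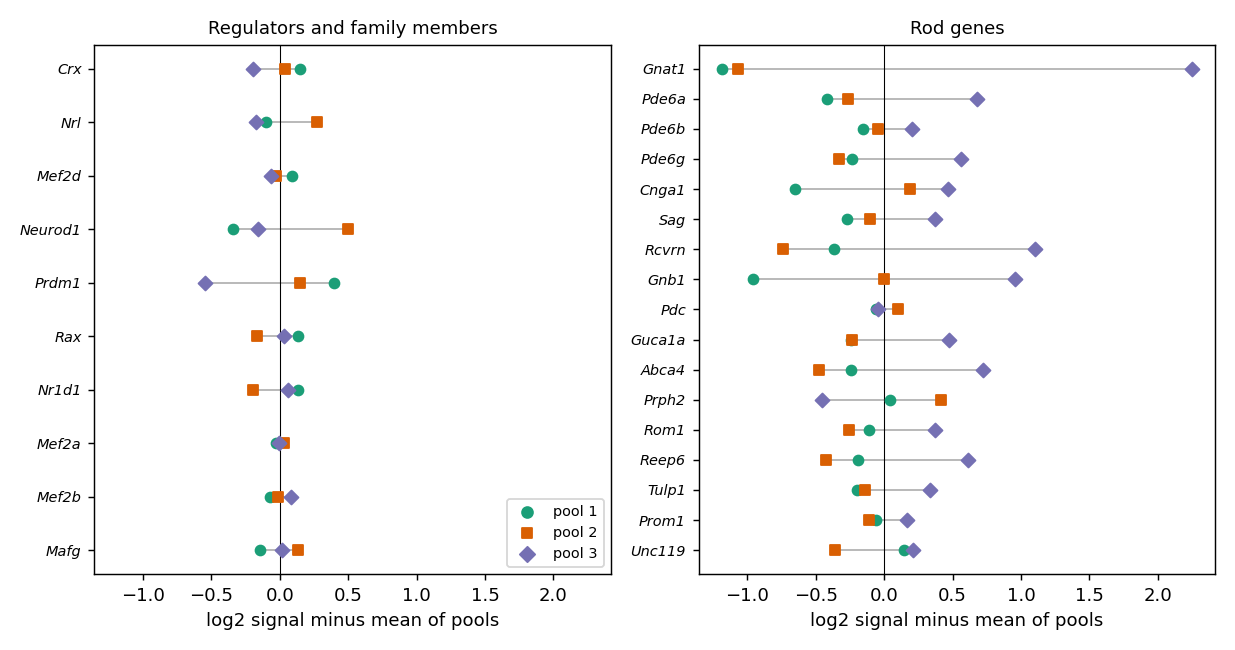
Each gene's log2 signal on the horizontal axis, centred on its mean over the pools, 1 row per gene above the limit on all arrays, for photoreceptor transcription factors with MEF2 and MAF relatives and for rod genes; circles, squares and diamonds are pools 1, 2 and 3. Of 17 rod genes 15 had the diamond furthest to the right, and of the 7 photoreceptor transcription factors 0 did.

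Cone genes did not all share 1 order of pools. Of 8 measured, 4 were above the limit on all arrays, against 42.8% of all named genes. Of these 4, 3 were highest in pool 2, namely Opn1sw, Gnat2 and Gngt2. The count was also 3 after quantile normalization and at a common median. Among all 3529 genes above the limit, 1179 were highest in pool 2 as deposited. Opn1sw, the short-wavelength opsin that is more abundant in retinas without Nrl, read 1475.3, 1657.0 and 1538.9. Gnat2, cone transducin, read 855.1, 1289.2 and 1078.9, and Gnb3, its beta subunit, read 5091.7, 5047.3 and 6702.9. Gngt2, its gamma subunit, read 675.0, 1133.6 and 468.7, highest in pool 2 and lowest in pool 3 as Nrl was. Opn1mw, the medium-wavelength opsin, read 211.3, 346.1 and 646.7 and passed the limit in pools 2 and 3. Cnga3, the cone channel subunit, was under it in every pool, at 47.0, 67.2 and 37.4.

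Stretches around TAATCC in the start regions of measured photoreceptor genes are shown because CRX regulates this gene group and its own start region holds the motif. Each has 10 bases on either side of the motif in capitals, is read 5′ to 3′ on the strand named, and comes from the same table on GRCm38.p6.
Cnga1, chr5:72642965-72642990, minus strand: tgtctcatttTAATCCtaatgataaa
Sag, chr1:87803583-87803608, minus strand: ttttttttttTAATCCtaaacctctt
Guca1a, chr17:47400648-47400673, plus strand: tgcagtctgcTAATCCcttcttaaca
Gucy2e, chr11:69237049-69237074, plus strand: ctgcagccctTAATCCctccaagccg
Abca4, chr3:122044392-122044417, minus strand: ccttcaagcaTAATCCccctctaatt
Unc119, chr11:78345456-78345481, minus strand: caaggcctggTAATCCagaaacagca
Gnat2, chr3:108093037-108093062, minus strand: agctccttccTAATCCggggattgtc
Thrb, chr14:17660904-17660929, minus strand: catgcaaagtTAATCCcgccgcgtca
Of the 16 measured rod genes with a promoter in the table, 6 held TAATCC in at least 1 of them (37.5%), and 5 held TGCTGA (31.2%). Of 6576 genes with a named probe set and a promoter in the table, 6.86% and 19.0% did. Among cone genes TAATCC was held by 2 of 6, Gnat2 and Thrb, and of 11 photoreceptor transcription factors 2 held it, Crx and Thrb. Sag and Unc119 held both motifs, Unc119 in different start regions. Sag, rod arrestin, read 22065.8, 24853.5 and 34553.8. Guca1a, a guanylate cyclase activator, read 971.3, 978.0 and 1594.0, and Unc119, a carrier of lipid-modified proteins such as transducin, read 13634.0, 9637.6 and 14316.2. Both were highest in pool 3 as deposited, as were Gnb1 and Pde6b, whose start regions in the table held no TAATCC.

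Markers of retina were present, together with those of lens and blood. For comparison, 42.8% of all named genes were above the limit on all arrays. Rod genes were above background as given above, and markers of amacrine and ganglion cells were so on all arrays for 7 of 9 measured genes and bipolar markers for 3 of 4. Of 10 genes of progenitors and dividing cells, 4 were above the limit throughout and Mki67, Top2a and Cdk1 on no array, with a summed signal of 4083.3 to 5507.6. Lens markers were above the limit throughout for 8 of 11 genes. Of 5 blood genes the globin genes Hba-a1, at 19101.1, 3410.3 and 12645.9, and Hbb-b2 were above it throughout and 3 on no array, with a summed signal of 4683.6 to 22011.1. Of 7 pigment epithelium genes only Pmel was above it throughout, and Rgr, Ttr, Tyr, Tyrp1 and Rdh5 were on no array, with a summed signal of 1198.4 to 1920.8. Of 11 muscle genes, a tissue in which MEF2 proteins are abundant, none was above the limit in every pool and 9 were in no pool. Their summed signal was 1383.3 to 1688.9. Several muscle genes also belong to the list that sets the limit.

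Genes whose pattern over the pools was closest to a member's were found by the root mean square difference of centred log2 signal over the 3 pools, among 4165 genes above the limit on average. For Crx these were Pigt, a subunit of the enzyme that attaches lipid anchors to proteins, at 1249.4, 1148.8 and 978.2, then Gcgr, the glucagon receptor, at 385.8, 357.0 and 300.3, and Itgb1bp1 at 405.2, 378.7 and 317.6. For Nrl they were Chtf8 at 624.4, 813.1 and 596.1, Smad1, a BMP effector, at 1075.7, 1382.1 and 1031.4, and Mob1a at 751.2, 979.1 and 707.4. For Mef2d they were Hnrnpd, an RNA-binding protein, at 2031.6, 1868.3 and 1824.8, Rbm18 at 1224.5, 1123.5 and 1093.5, and Gtf2f1, a general transcription factor subunit, at 799.4, 744.4 and 724.8.

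With 3 pools many genes are alike: 446 lay within 0.1 log2 units of Crx, 331 of Nrl and 604 of Mef2d. Mef2d ranked 364th among genes closest to Crx, at a difference of 0.090, and Nrl ranked 1493th, at 0.20. After quantile normalization 0 of the 3 named genes remained for any member.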

How the data were processed

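Total RNA of 3 pools of wild-type retina was measured on Affymetrix U74Av2 arrays, as named in the titles. The deposited values are a linear intensity per probe set, with no detection call. The sources used here do not state how the authors summarised and scaled them. Their means after trimming 2% at each end agreed within 0.0078%, so the intensities were used as deposited. Of 12488 probe sets, 66 controls were set aside. A single symbol was available for 10855, several for 396 and none here for 1237. For 10839 the Entrez number was found in a RefSeq table, and the symbol given there was used, whether or not it differed from the platform symbol. A gene was represented by its brightest probe set, and values under 1 were set to 1 before log2. Depth has no counterpart here, and the number of arrays limits precision. Members, gene lists and rules were chosen with earlier results of these data known.

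Named were every probe set of the members, all measured photoreceptor transcription factor, MEF2 and MAF genes, and, from other lists, the first 6 measured or those spanning over 2-fold. For each member the 3 closest genes were also named, and Pax6, Phox2a, Prrx1, Prrx2, Pias3, Nono, Map2k6, Ppp3ca, Ppp3r1, Camk2b, Pdc, Prph2, Guca1a, Unc119 and the single marker genes were named after their values were seen. The closest-gene search was tested on simulated data with planted near copies of each member's pattern. Such a test checks the calculation only, and not whether likeness over 3 pools has a meaning. Alternatives changed scaling, floor, limit, probe set choice, likeness measure and pools. Python 3.11.15, pandas 2.3.3 and NumPy 2.4.6 were used.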

Additional observations from a re-analysis of the deposited data

How the results depend on the processing

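Each member has a single plain _at probe set with signals above the alternative floor of 100, so the choice of probe set and the floor could not move its values. Under quantile normalization or a common median, the mean log2 signals of Crx, Nrl and Mef2d moved by less than their SD. Leaving out 1 pool in turn, the log2 range was 0.11 to 0.34 for Crx, 0.071 to 0.45 for Nrl and 0.041 to 0.16 for Mef2d, as ranges of 2 pools are smaller by construction. The range of Mef2d was 0.28 after quantile normalization. With the limit at the 95th percentile, 2734 in place of 4370 probe sets were above it on all arrays, and 4 in place of 7 photoreceptor transcription factors. No MAF gene then passed, and with averaged probe sets 1 in place of 3 MEF2 genes did. The genes closest to each member were different with quantile normalization or with shape alone (0 of 3 shared). Scaling on probe sets other than lens genes, chosen after seeing the data, multiplies all values of an array by 1 factor, so it cannot change how genes differ from each other. The same holds for scaling to a common median. No paired analysis was possible because the labels give 1 group and no replicate numbers.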

Other observations

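Genes beside the members in the annotation, chosen after the members' values were known, had signals of their own. Crxos, which lies next to Crx, read 215.9, 362.4 and 378.5 in pools 1 to 3 on 1 probe set, above the limit in pools 2 and 3, and 39.5, 47.8 and 109.4 on another, under it throughout. Both were lowest in pool 1, where Crx was highest as deposited. Nop53, a ribosome assembly factor 3 genes away on the same side, read 1648.9, 1382.3 and 1424.8. On either side of Nrl, Cpne6, a calcium-dependent membrane-binding protein, read 369.0, 467.9 and 592.5, and Pck2, a mitochondrial enzyme of gluconeogenesis, read 247.8, 231.1 and 299.3, under the limit. Dcaf11, the gene after Pck2, read 545.9, 824.7 and 415.8, highest in pool 2 and lowest in pool 3, the order of Nrl. Naxe, 3 genes from Mef2d, read 1852.8, 1918.9 and 2168.5, and Iqgap3, directly beside Mef2d, was under the limit in every pool.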
